A study of Rattus norvegicus with 8 samples.

Results

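The genes described here carry cells through mitosis, the division of a duplicated set of chromosomes between daughter cells. A list of 52 rat symbols was searched in the deposited expression table, and a gene was taken from the probe set that named it alone, or from the one with the highest mean over the arrays where several did. Of the 52 genes, 45 were measured among 14511 genes in all. The other 7, Cenpe, Cenpf, Espl1, Anln, Mki67, Ncapg and Ncaph, had no such probe set in the values used here and were not analysed. The genes were taken by symbol, but the list was drawn up with earlier results of these data known.

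The RNA came from livers of female Wistar rats, which are outbred laboratory animals, and was read on 8 arrays of the type Affymetrix Rat Gene 1.0 ST, 2 in each of 4 groups. One group was the liver that remained 8 h after most of the organ had been removed by surgery, a partial hepatectomy (PH). The other 3 groups were livers of unoperated, healthy rats aged 2, 4 and 12 weeks, which the labels call developing liver at 2 and 4 weeks and adult liver at 12 weeks. How old the operated rats were is not stated in the labels, and sham-operated rats were not analysed here, so where PH is set against 12 weeks the effects of the operation, of age and of the hour of sampling cannot be told apart. By their titles the 2 arrays of a group are biological replicates, but the series' design calls them duplicates, and p-values measure only the spread between these arrays, which may be partly technical.

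Entry into mitosis is driven by the kinase CDK1 with its B-type cyclins. Aurora and polo-like kinases then build the spindle with the help of kinesin motors, kinetochores tie the chromosomes to it, and the spindle checkpoint holds the cell until all are attached. The ubiquitin ligase APC/C with its activator CDC20 then starts anaphase, and a central spindle directs the cut between the daughter cells. Most of these genes are silent in resting cells and are transcribed together late in the cell cycle. Their promoters are known for the cell cycle genes homology region (CHR), which binds the MuvB complex, and for CCAAT boxes, which bind NF-Y. MuvB represses them in resting cells as part of the DREAM complex and activates them in dividing cells together with B-MYB and FOXM1. Hepatocytes of the young rat still divide, those of the adult rest, and after hepatectomy in the rat they pass through a long G1 phase before they replicate DNA and divide.

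The promoter letters below come from RefSeq on the build GRCr8 and run 5′ to 3′ on the gene's own strand over the 250 bases before the start of transcription. They are shown for 5 genes with large differences between the ages and for Cks2, which had the smallest difference of all members. Capitals mark matches to the CHR (TTTGAA or TTTAAA), the CCAAT box (CCAAT) and the E2F element (TTTGGCGC, TTTCCCGC, TTTCGCGC or TTTGCCGC), each searched on both strands, so a CHR can read TTCAAA and a CCAAT box ATTGG. The stretches lie at chr2:33655226-33655475 on the minus strand for Ccnb1, chr8:79981659-79981908 on the minus strand for Ccnb2 and chr20:19265043-19265292 on the plus strand for Cdk1. Those of Cdc20, Top2a and Cks2 lie at chr5:137255800-137256049, chr10:84473094-84473343 and chr17:13727520-13727769, all on the minus strand.
Ccnb1: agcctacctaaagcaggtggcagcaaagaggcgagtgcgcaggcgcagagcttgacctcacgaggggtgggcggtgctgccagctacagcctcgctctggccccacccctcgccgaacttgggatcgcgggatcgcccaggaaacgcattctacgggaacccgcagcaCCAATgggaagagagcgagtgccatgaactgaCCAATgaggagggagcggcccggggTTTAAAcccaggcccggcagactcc
Ccnb2: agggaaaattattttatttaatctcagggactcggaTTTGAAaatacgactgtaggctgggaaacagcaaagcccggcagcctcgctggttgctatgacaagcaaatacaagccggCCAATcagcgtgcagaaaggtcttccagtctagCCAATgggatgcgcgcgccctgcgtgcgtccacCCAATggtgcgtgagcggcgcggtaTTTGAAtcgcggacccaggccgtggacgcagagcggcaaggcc
Cdk1: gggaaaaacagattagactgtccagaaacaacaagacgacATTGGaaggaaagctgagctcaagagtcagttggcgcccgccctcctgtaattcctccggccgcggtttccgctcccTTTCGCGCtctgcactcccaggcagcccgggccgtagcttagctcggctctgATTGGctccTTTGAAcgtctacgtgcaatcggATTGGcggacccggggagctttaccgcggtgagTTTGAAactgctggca
Cdc20: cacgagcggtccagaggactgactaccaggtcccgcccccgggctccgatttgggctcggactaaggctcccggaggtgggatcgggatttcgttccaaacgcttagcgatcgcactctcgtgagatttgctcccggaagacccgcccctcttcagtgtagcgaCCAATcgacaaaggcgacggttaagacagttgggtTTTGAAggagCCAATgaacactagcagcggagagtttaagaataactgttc
Top2a: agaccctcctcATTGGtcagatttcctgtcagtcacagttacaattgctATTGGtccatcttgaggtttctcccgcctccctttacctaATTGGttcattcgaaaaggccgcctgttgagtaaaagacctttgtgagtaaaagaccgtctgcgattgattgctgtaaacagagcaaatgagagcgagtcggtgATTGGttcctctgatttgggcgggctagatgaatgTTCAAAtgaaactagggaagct
Cks2: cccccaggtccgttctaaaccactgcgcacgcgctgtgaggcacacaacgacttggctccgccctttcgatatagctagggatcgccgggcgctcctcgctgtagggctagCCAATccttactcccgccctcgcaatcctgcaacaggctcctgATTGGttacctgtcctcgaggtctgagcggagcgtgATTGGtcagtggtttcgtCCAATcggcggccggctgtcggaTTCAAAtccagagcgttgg

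All 6 promoters held a CHR match and at least 2 CCAAT boxes, and Cdk1 alone among them held an E2F match. The 2 CCAAT boxes of Ccnb1 start 32 bases apart, and the 3 of Ccnb2 are spaced 33 and 33 bases. Cks2 and Top2a, with 1 CHR and 4 CCAAT boxes each, lie far apart in the difference of 12 weeks minus 2 weeks, at 0.09 for Cks2 and -2.99 for Top2a.

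Over the window from 250 bases before to 50 bases after the start, 38 of the 45 measured members had a promoter in the RefSeq table. A CHR match stood in 33 of these 38 (86.8%), against 23.8% of the 11972 promoters of genes tested on the arrays and 27.9% of all 27457 promoters in the table. TTTGAA alone was found in 68.4% of the members' promoters and 15.2% of those of the genes tested. At least 1 CCAAT box stood in 27 of 38 (71.1%), against 38.3% of the genes tested and 37.7% of all promoters. Both together stood in 65.8% of the members' promoters, against 9.74% of the genes tested. An E2F match, typical of genes of DNA replication, was present in 1 of 38 (2.63%), against 3.08% of the genes tested. By the test given further below, 23 of the 38 were called lower at 12 weeks than at 2 weeks. A CHR match stood in 95.7% of these and in 73.3% of the 15 not called. TTTGAA alone stood in 69.6% and 66.7%, and at least 2 CCAAT boxes in 65.2% and 26.7%, in the same order. Whether the 2 sets differ was not tested.

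Other genes of the cell cycle show how this composition is placed. Of 46 promoters on a list of other mitosis genes, 65.2% held a CHR match and 2.17% an E2F match. Of 23 promoters of DNA replication genes, 4.35% held a CHR match and 56.5% an E2F match, with CCAAT boxes in 69.6%. In 24 of the 33 members with a CHR match, one began within 50 bases on either side of the start. A match is a description of letters and does not show that a factor binds there.

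**Figure D1:**
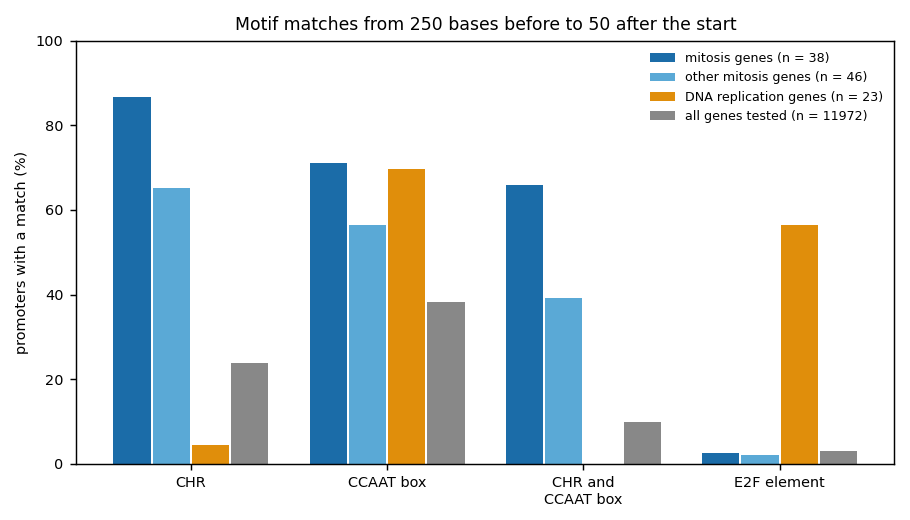
Share of promoters (%) with a match to the CHR, the CCAAT box, both, and the E2F element, from 250 bases before to 50 bases after the start, for the mitosis genes (38 promoters), other mitosis genes (46), DNA replication genes (23) and all genes tested on the arrays (11972). The CHR bar of the mitosis genes stands at 86.8% against 23.8% for all genes tested, and only the DNA replication genes have a tall E2F bar, at 56.5%.

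Values are log2 levels made by robust multi-array averaging (RMA), so a difference of 1 is a 2-fold change. They compare a gene across arrays and not one gene with another. Array medians over all probe sets lay between 5.98 and 6.17, and values ran from 1.32 to 14.23. The 12-week arrays were the least alike: 1838 genes differed at least 2-fold between them, against 432 to 621 in the other groups. Hepatocyte markers, such as albumin and transferrin, had a median of 13.1 to 13.4 on every array, and liver was the labelled tissue. These medians lay near the highest value of 14.23, and whether changes are compressed there was not tested. Of the 45 members, 40 had a mean below the median gene (6.75), with member means from 4.65 to 7.81, and at such levels a signal is hard to tell from background and changes are compressed.

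The first 2-week array stood above the second in 43 of the 45 members, by a median of 0.56, while 51.4% of all genes were higher on it. The median member level was 5.15 and 5.18 on the arrays after PH, 7.27 and 6.69 at 2 weeks, 6.12 and 6.18 at 4 weeks, and 5.14 and 5.33 at 12 weeks. Markers of blood-forming cells were also higher on the first 2-week array, and so were lists of other kinds. The median of 11 erythroid markers was 7.72 and 6.43 on the 2-week arrays, that of 11 neutrophil precursor markers 6.72 and 5.60, and the granule gene Ngp stood at 11.28 and 6.55. On the same arrays the median was 9.19 and 8.52 over 7 endothelial markers, 7.52 and 6.89 over 25 DNA replication genes, and 6.85 and 6.28 over 33 other mitosis genes. Medians of hepatocyte markers, of lymphocyte markers and of CDK inhibitors with p53 targets were lower on the first 2-week array. The members' counts of calls and medians that use the 2-week group are therefore also given without that array. Shares over all genes below come from the main fit of all 8 arrays, and counts from other fits have none beside them. The median of 1240 olfactory and vomeronasal receptor genes, which serve smell, was 4.64 and 4.16 on the arrays after PH, 3.99 to 4.06 at 2 and 4 weeks, and 4.72 and 3.90 at 12 weeks. In whole liver, fewer cells of a type and less RNA per cell cannot be told apart.

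**Figure D2:**
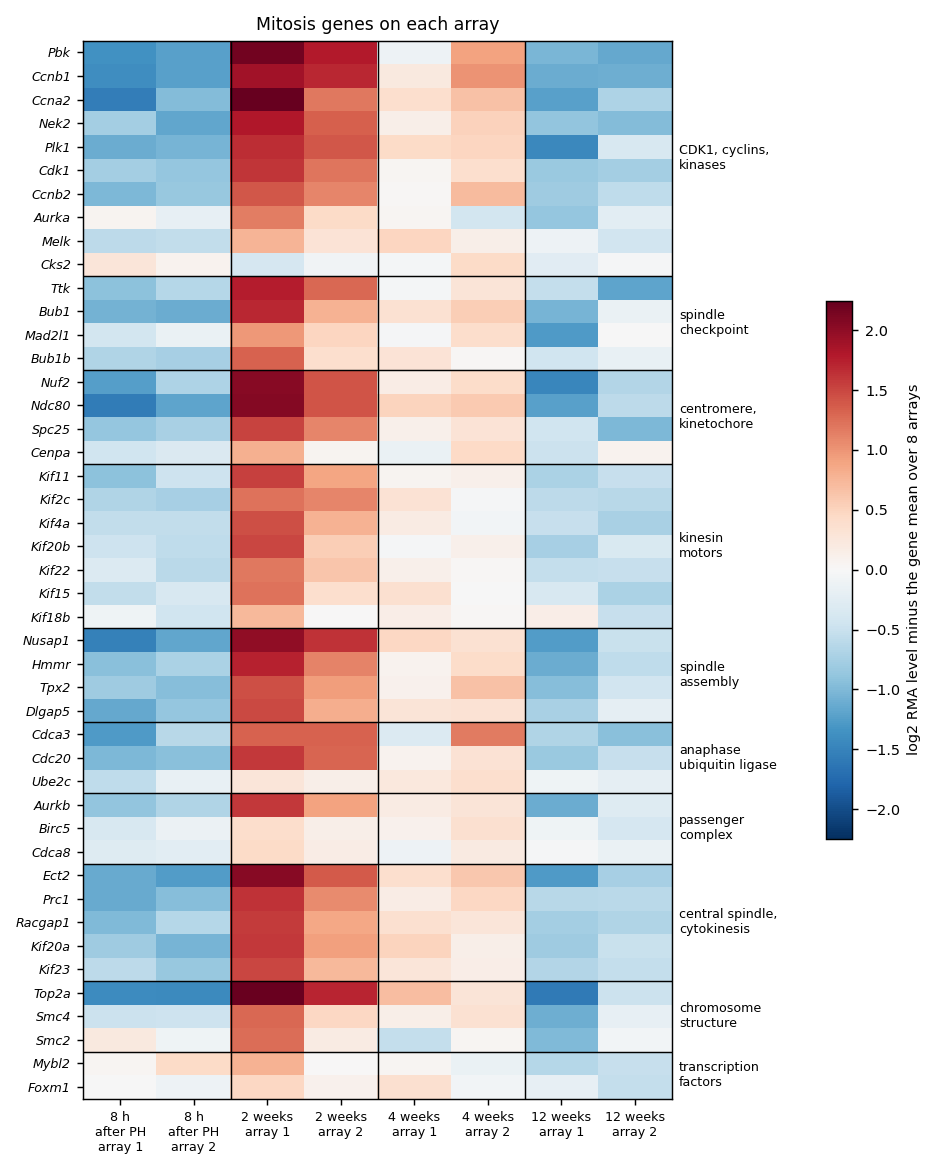
Log2 RMA level of each of the 45 mitosis genes (rows, grouped by role) on each of the 8 arrays (columns), minus the gene's mean over the arrays; red is above and blue below that mean. The 2-week columns are red for nearly all genes, the 4-week columns are close to the mean, and the columns after PH and at 12 weeks are blue, with Cks2, Ube2c and Mybl2 among the exceptions.

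Most of the mitosis genes were lower at 12 weeks than at 2 weeks, from the kinases of mitotic entry to the genes of cytokinesis. In 1 linear model of the 4 groups fitted with limma, with p-values adjusted by the Benjamini-Hochberg method over 14511 genes and a threshold of 0.05, 28 of the 45 members were lower at 12 weeks and 0 were higher. Among all genes tested 1.29% were lower at 12 weeks by the same rule, and the 28 members were 15% of those 187 genes. The median member difference, 12 weeks minus 2 weeks, was -1.85, against 0.01 over all genes. At least a 2-fold lower mean was found for 36 members (3.38% of all genes), and in 42 members both 12-week arrays lay below both 2-week arrays, as in 17.6% of all genes. Without the first 2-week array 8 members were called, Cdk1, Ccnb1, Nek2, Pbk, Ndc80, Nusap1, Cdc20 and Ect2, and the median was -1.57. These 8 were also called without each of the other arrays in turn. On data simulated for this comparison, a change of 1 log2 unit was detected in 19% of the genes given one, and a change of 2 in 93.2%. These rates are over all 14511 genes and were not worked out for the members, most of which are low.

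The kinase at the centre of mitotic entry and its cyclins were among the members with the clearest differences. Cdk1 measured 4.86 and 4.75 after PH, 7.23 and 6.82 at 2 weeks, 5.67 and 5.99 at 4 weeks, and 4.79 and 4.85 at 12 weeks. Its 2-week arrays were highest, the 4-week arrays lay between, and the arrays after PH overlapped with those at 12 weeks. The difference of 12 weeks minus 2 weeks was -2.21 ± 0.24 (SE), a 4.62-fold lower level (limma adjusted p = 0.00390). Cyclin B1, Ccnb1, measured 4.92 and 5.10 after PH, 8.19 and 8.01 at 2 weeks, 6.54 and 7.32 at 4 weeks, and 5.21 and 5.22 at 12 weeks. The 4 groups did not overlap in this gene, and its mean was 5.21 ± 0.01 at 12 weeks against 8.10 ± 0.13 at 2 weeks (SD, n = 2 each), a difference of -2.89 ± 0.28 (SE) or 7.40-fold (limma adjusted p = 0.00248).

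Cyclin B2, Ccnb2, measured 5.93 and 6.08 after PH, 8.33 and 8.03 at 2 weeks, 6.97 and 7.64 at 4 weeks, and 6.14 and 6.37 at 12 weeks. A second probe set of this gene gave a difference of -2.06 between 12 and 2 weeks, close to the -1.93 of the first. Its 2-week arrays read 8.34 and 8.04, nearly the same as in the first, and whether the sets share signal was not tested. Cyclin A2, Ccna2, which serves S phase and early mitosis, measured 4.47 and 5.04 after PH, 8.27 and 7.21 at 2 weeks, 6.40 and 6.67 at 4 weeks, and 4.79 and 5.33 at 12 weeks. Its arrays after PH overlapped with those at 12 weeks, and both groups lay below the 2- and 4-week arrays.

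Plk1, the polo-like kinase of spindle poles and kinetochores, measured 5.46 and 5.54 after PH, 8.25 and 7.98 at 2 weeks, 7.01 and 7.07 at 4 weeks, and 5.14 and 6.22 at 12 weeks. Nek2, a kinase that separates centrosomes, measured 5.23 and 4.82 after PH, 7.80 and 7.33 at 2 weeks, 6.13 and 6.51 at 4 weeks, and 5.11 and 5.03 at 12 weeks. Both had the same order of groups, with the 12-week arrays of Plk1 further apart. A second probe set of Nek2 held the same values as the first on all 8 arrays, so it is no separate reading. Pbk, a protein kinase active in mitosis, had the largest difference of all members at 12 weeks against 2 weeks, -3.06 ± 0.34 (SE) or 8.32-fold lower (limma adjusted p = 0.00402). It measured 4.44 and 4.56 after PH, 7.96 and 7.57 at 2 weeks, 5.68 and 6.70 at 4 weeks, and 4.77 and 4.65 at 12 weeks.

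Not every gene of this role followed that order. Cks2, a small subunit that binds CDK1, measured 5.71 and 5.53 after PH, 5.07 and 5.37 at 2 weeks, 5.39 and 5.87 at 4 weeks, and 5.19 and 5.41 at 12 weeks. Its 12- and 2-week arrays overlapped (difference 0.09 ± 0.25 SE, 95% interval under the model -0.49 to 0.66), and its arrays after PH were above those of both. The kinases Aurka, which works at spindle poles, and Melk differed by -1.34 and -0.82 at 12 weeks against 2 weeks and were not called, although their arrays did not overlap. Of the 10 genes of this role, 7 were called lower at 12 weeks, and 4 without the first 2-week array. Without that array the Cks2 difference was -0.06.

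**Figure D3:**
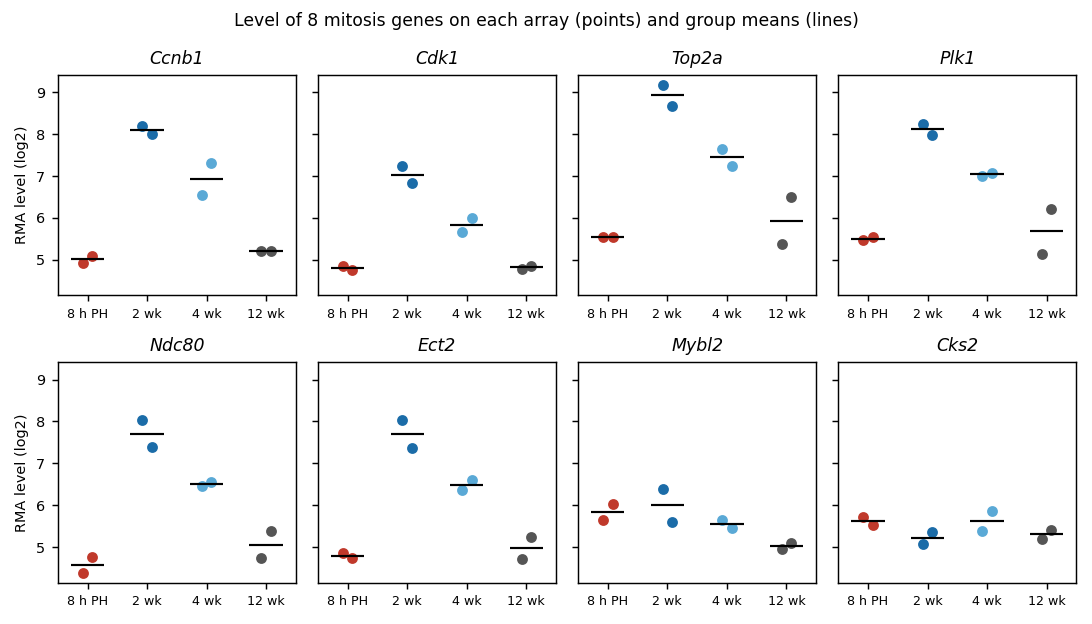
Log2 RMA level of 8 mitosis genes on each array (points) with the mean of each group (line), for 8 h after PH and 2, 4 and 12 weeks of age (2 arrays each). In the panels of Ccnb1, Cdk1, Top2a, Plk1, Ndc80 and Ect2 the 2-week points are highest and those after PH lie near the 12-week ones, while Mybl2 after PH lies above 12 weeks and Cks2 shows no such order.

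Of the 4 spindle checkpoint genes, 2 were called lower at 12 weeks than at 2 weeks. The checkpoint kinase Ttk measured 4.06 and 4.33 after PH, 6.74 and 6.26 at 2 weeks, 4.93 and 5.26 at 4 weeks, and 4.44 and 3.80 at 12 weeks. Bub1, a kinase at unattached kinetochores, measured 4.34 and 4.28 after PH, 7.10 and 6.19 at 2 weeks, 5.74 and 5.96 at 4 weeks, and 4.35 and 5.25 at 12 weeks. Ttk differed by -2.38 and Bub1 by -1.85 between 12 and 2 weeks, and the Bub1 call was close to the threshold (limma adjusted p = 0.0486). Bub1b, which encodes the APC/C inhibitor BUBR1, measured 4.51 and 4.44 after PH, 6.51 and 5.57 at 2 weeks, 5.49 and 5.22 at 4 weeks, and 4.74 and 5.03 at 12 weeks. It differed by -1.16 between 12 and 2 weeks and Mad2l1, the checkpoint protein MAD2, by -1.36, and neither was called. With 1 array left out these ran from -1.62 to -0.69 in Bub1b, nearest 0 without the first 2-week array, and from -1.99 to -0.73 in Mad2l1, nearest 0 without the first 12-week array and called without the second. Of the 4 genes 0 were called without the first 2-week array, and the Bub1 call was also lost without either array after PH, either 4-week array or the first 12-week array.

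At the kinetochore, the 3 measured subunits of the NDC80 complex, which grips microtubule ends, were all called lower at 12 weeks than at 2 weeks. Ndc80 measured 4.39 and 4.78 after PH, 8.03 and 7.38 at 2 weeks, 6.46 and 6.55 at 4 weeks, and 4.74 and 5.38 at 12 weeks. Its partner Nuf2 measured 3.99 and 4.55 after PH, 7.29 and 6.64 at 2 weeks, 5.40 and 5.64 at 4 weeks, and 3.78 and 4.59 at 12 weeks. The differences of 12 weeks minus 2 weeks were -2.64 ± 0.31 for Ndc80, -2.78 ± 0.35 for Nuf2 and -2.04 ± 0.27 for Spc25 (SE). Spc25 measured 5.01 and 5.14 after PH, 7.40 and 6.98 at 2 weeks, 5.99 and 6.18 at 4 weeks, and 5.43 and 4.87 at 12 weeks. Cenpa, the histone H3 variant that marks centromeres, measured 5.15 and 5.28 after PH, 6.39 and 5.66 at 2 weeks, 5.44 and 6.05 at 4 weeks, and 5.11 and 5.67 at 12 weeks, and its age groups overlapped. Ndc80 alone of the 4 genes of this role was called without the first 2-week array, where the Cenpa difference was -0.27, against -0.63 with all arrays.

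Of 7 kinesin motors, 4 were called lower at 12 weeks than at 2 weeks. Kif11, which pushes spindle poles apart, measured 4.77 and 5.22 after PH, 7.23 and 6.58 at 2 weeks, 5.75 and 5.80 at 4 weeks, and 4.97 and 5.17 at 12 weeks. Kif2c, which shortens microtubules at centromeres, measured 4.73 and 4.67 after PH, 6.62 and 6.50 at 2 weeks, 5.74 and 5.38 at 4 weeks, and 4.82 and 4.78 at 12 weeks. Their differences, -1.83 for Kif11 and -1.76 for Kif2c, were smaller than those of the NDC80 subunits. Kif4a, which binds chromosomes, measured 5.18 and 5.18 after PH, 7.18 and 6.52 at 2 weeks, 5.91 and 5.66 at 4 weeks, and 5.21 and 4.99 at 12 weeks. Kif22, also a chromosome-binding kinesin, measured 5.37 and 5.06 after PH, 6.85 and 6.30 at 2 weeks, 5.79 and 5.69 at 4 weeks, and 5.14 and 5.16 at 12 weeks. Its difference was -1.42 (limma adjusted p = 0.0276), a call kept in 7 of 17 alternative runs. With 1 array left out the Kif22 difference ran from -1.70 to -1.15. Kif15, Kif20b and Kif18b were not called, with differences of -1.34, -1.57 and -0.55. Kif18b, which acts on astral microtubules, measured 5.67 and 5.32 after PH, 6.51 and 5.77 at 2 weeks, 5.92 and 5.80 at 4 weeks, and 5.91 and 5.26 at 12 weeks, and its 4 groups overlapped in part. The count of called kinesins was 0 without the first 2-week array, where the Kif18b difference was -0.19, and 2 without the first 12-week array.

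All 4 spindle assembly genes were called lower at 12 weeks than at 2 weeks. Nusap1, which bundles spindle microtubules, measured 4.41 and 4.75 after PH, 7.92 and 7.54 at 2 weeks, 6.40 and 6.26 at 4 weeks, and 4.67 and 5.43 at 12 weeks. Tpx2, the activator of Aurora A, measured 5.94 and 5.78 after PH, 8.18 and 7.68 at 2 weeks, 6.83 and 7.40 at 4 weeks, and 5.78 and 6.30 at 12 weeks. The difference of 12 weeks minus 2 weeks was -2.68 ± 0.30 for Nusap1 and -1.89 ± 0.30 for Tpx2 (SE). Hmmr, a spindle pole protein, measured 4.03 and 4.26 after PH, 6.70 and 6.09 at 2 weeks, 5.06 and 5.38 at 4 weeks, and 3.87 and 4.40 at 12 weeks. Dlgap5, which stabilises kinetochore fibres, measured 5.03 and 5.31 after PH, 7.65 and 6.99 at 2 weeks, 6.46 and 6.49 at 4 weeks, and 5.45 and 5.96 at 12 weeks. Both arrays of Dlgap5 after PH lay below both at 12 weeks. Its difference of 12 weeks minus 2 weeks was -1.62 (limma adjusted p = 0.0306), a call kept in 8 of 17 alternative runs. With 1 array left out the Dlgap5 difference ran from -1.95 to -1.29. Of the 4 calls, 1 remained without the first 2-week array, that of Nusap1, and 2 were made without the first 12-week array.

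Among the 3 genes around the APC/C, Cdc20 was called and the other 2 were not. Cdc20 measured 5.37 and 5.45 after PH, 7.98 and 7.70 at 2 weeks, 6.47 and 6.71 at 4 weeks, and 5.55 and 5.88 at 12 weeks, and differed by -2.13 ± 0.23 (SE) between 12 and 2 weeks (limma adjusted p = 0.00390). Cdca3, which takes part in mitotic entry, measured 3.73 and 4.39 after PH, 6.33 and 6.33 at 2 weeks, 4.70 and 6.18 at 4 weeks, and 4.33 and 4.06 at 12 weeks. Its difference of -2.14 was as large as that of Cdc20, but its 4-week arrays stood far apart and the adjusted p was 0.0546, and it was called without either one of them. Ube2c, the ubiquitin-conjugating enzyme of the APC/C, measured 6.44 and 6.83 after PH, 7.27 and 7.14 at 2 weeks, 7.24 and 7.39 at 4 weeks, and 6.92 and 6.80 at 12 weeks. Its difference was -0.35 ± 0.23 (SE), and its 2- and 4-week arrays overlapped.

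In the chromosomal passenger complex, 1 of 3 genes was called. The kinase Aurkb measured 5.51 and 5.72 after PH, 7.98 and 7.30 at 2 weeks, 6.58 and 6.68 at 4 weeks, and 5.27 and 6.10 at 12 weeks, with a difference of -1.95 between 12 and 2 weeks. Cdca8, the subunit borealin, measured 5.26 and 5.31 after PH, 5.98 and 5.72 at 2 weeks, 5.44 and 5.76 at 4 weeks, and 5.53 and 5.41 at 12 weeks. Cdca8 differed by -0.38 and Birc5, the subunit survivin, by -0.50, and both stayed under a 2-fold change. The Aurkb call was lost without the first 2-week array, the first 12-week array or either 4-week array, and the Cdca8 difference was -0.25 without the first of these.

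All 5 genes of the central spindle and cytokinesis were called lower at 12 weeks than at 2 weeks. Ect2, which activates RhoA at the cleavage site, measured 4.85 and 4.73 after PH, 8.04 and 7.37 at 2 weeks, 6.37 and 6.60 at 4 weeks, and 4.73 and 5.25 at 12 weeks. Its difference was -2.72 ± 0.30 (SE), 6.59-fold (limma adjusted p = 0.00390). Prc1, which cross-links central spindle microtubules, measured 5.25 and 5.42 after PH, 8.00 and 7.44 at 2 weeks, 6.55 and 6.85 at 4 weeks, and 5.75 and 5.77 at 12 weeks. Racgap1, a subunit of centralspindlin, measured 5.02 and 5.38 after PH, 7.60 and 6.89 at 2 weeks, 6.37 and 6.29 at 4 weeks, and 5.26 and 5.34 at 12 weeks. Both arrays of Prc1 after PH lay below both at 12 weeks, while those of Ect2 and Racgap1 overlapped with them. Kif23, the kinesin subunit of centralspindlin, measured 5.32 and 5.06 after PH, 7.41 and 6.64 at 2 weeks, 6.18 and 6.06 at 4 weeks, and 5.25 and 5.38 at 12 weeks. Kif20a, a kinesin that carries the passenger complex to the central spindle, measured 4.88 and 4.62 after PH, 7.27 and 6.59 at 2 weeks, 6.17 and 5.80 at 4 weeks, and 4.87 and 5.18 at 12 weeks. The differences in Prc1, Racgap1, Kif23 and Kif20a lay between -1.96 and -1.71. Ect2 alone of the 5 was called without the first 2-week array, and 3 were without the first 12-week array.

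Top2a, the topoisomerase that untangles sister chromatids, measured 5.56 and 5.54 after PH, 9.18 and 8.67 at 2 weeks, 7.65 and 7.25 at 4 weeks, and 5.38 and 6.49 at 12 weeks. It differed by -2.99 ± 0.37 (SE) between 12 and 2 weeks, 7.96-fold (limma adjusted p = 0.00686), and its second 12-week array stood above the first. The condensin subunit Smc2 measured 7.73 and 7.42 after PH, 8.76 and 7.69 at 2 weeks, 6.98 and 7.55 at 4 weeks, and 6.52 and 7.45 at 12 weeks. Smc2 differed by -1.24 and its partner Smc4 by -1.52, and neither was called. The differences without the first 2-week array were -2.74 in Top2a, whose call was lost (limma adjusted p = 0.0638), -0.70 in Smc2 and -1.10 in Smc4. Smc4 was called without the second 12-week array.

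Neither transcription factor of the list passed the test between 12 and 2 weeks. Foxm1 measured 6.59 and 6.49 after PH, 7.06 and 6.70 at 2 weeks, 6.96 and 6.53 at 4 weeks, and 6.42 and 6.07 at 12 weeks, a difference of -0.63 ± 0.26 (SE). Mybl2, which encodes B-MYB, measured 5.65 and 6.04 after PH, 6.38 and 5.61 at 2 weeks, 5.65 and 5.46 at 4 weeks, and 4.96 and 5.09 at 12 weeks, a difference of -0.97 ± 0.29 (SE). Without the first 2-week array the Mybl2 difference was -0.58. The 2-week arrays of both genes were highest by their mean, but the differences were smaller than the median member difference.

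At 4 weeks most members lay about midway between their 12- and 2-week levels. At 4 weeks against 2 weeks 43 of the 45 members were below 0 (49.8% of all genes), with a median of -0.96, and at 12 weeks against 4 weeks 45 of 45 were below 0 (50.1% of all genes), with a median of -0.87. Both steps share the 4-week arrays. No member passed the adjusted threshold in limma at either step, against 0.455% of all genes at 4 weeks against 2 weeks and 0.11% at 12 weeks against 4 weeks in either direction. At an unadjusted p under 0.05, 29 members were lower at 4 weeks than at 2 weeks (3.79% of all genes) and 30 lower at 12 weeks than at 4 weeks (2.81%). Arrays did not overlap in 36 members at the first step (20.1% of all genes in that direction) and in 38 at the second (13.7%). Without the first 2-week array the median at 4 weeks against 2 weeks was -0.62, with 39 members below 0.

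Over the 28 members called between 12 and 2 weeks, the 4-week mean had covered a median of 51.7% of the log2 distance down to 12 weeks, with 40.7% in Ccnb1 as the lowest share and 61.6% in Kif11 as the highest. The difference between the 2 steps was tested itself. Its median over the members was -0.01, its range ran from -0.74 to 0.69, 0 members were called in limma after adjustment (0.0689% of all genes), and 0 had an unadjusted p under 0.05 (3.64% of all genes). Without the first 2-week array the median share was 44.3%, from 24.3% in Bub1 to 56.2% in Cdc20. With any other array left out it lay between 45.9%, without the second 12-week array, and 56.9%, without the second 2-week array. The highest share of a single gene in these fits was 68.4%, in Ttk without the second 12-week array. Without the first 2-week array the median difference between the steps was -0.29, with 38 members below 0. A difference between the steps was not detectable in single members with these arrays. The steps span unequal times.

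At 8 h after PH the mitosis genes were not called different from 12 weeks. In limma 0 of 45 members passed the adjusted threshold, against 0.0345% of all genes (5 genes), and 0 members passed in any alternative run. The median difference, PH minus 12 weeks, was -0.10, with 31 members below 0 (49.7% of all genes) and 14 above (50.3%). It was -0.18 without the first 12-week array and -0.06 without the second. The 95% intervals under the model had an upper bound below 1 in 40 of the 45 members, so a 2-fold rise in array level lay outside them. The same held in all 28 members called between the ages, where the highest upper bound was 0.90. The upper bound reached 1 or more in Aurka, Mad2l1, Smc2, Smc4 and Mybl2. The lower bound was above -1 in 36 members, and the lowest was -1.35, in Bub1. Changes are compressed at the low levels of most members, so these bounds hold for array levels and not for amounts of RNA. For Cdk1 the difference was -0.01, with an interval from -0.56 to 0.53, and for Ccnb1 it was -0.20, from -0.85 to 0.45.

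With 2 arrays a group, arrays without overlap are common. In 11 of the 45 members both arrays after PH lay below both at 12 weeks, against 15.2% of all genes. In 4 of the 45, Cks2, Aurka, Foxm1 and Mybl2, both lay above, a smaller share than the 13.7% of all genes. The largest difference upward was in Mybl2, 0.82 ± 0.29 (SE), 1.76-fold, with an unadjusted p of 0.0232 in limma and an adjusted p of 0.693. It was the single member of 45 with an unadjusted p under 0.05, a share below the 3.03% of all genes in that direction. The largest difference downward was -0.54 ± 0.29 (SE) in Dlgap5 (limma adjusted p = 0.966). The smell receptor genes were higher on both arrays after PH and on the first 12-week array than on the other arrays, and their part in these differences was not tested beyond the covariate fit, in which 0 members were called as well.

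**Figure D4:**
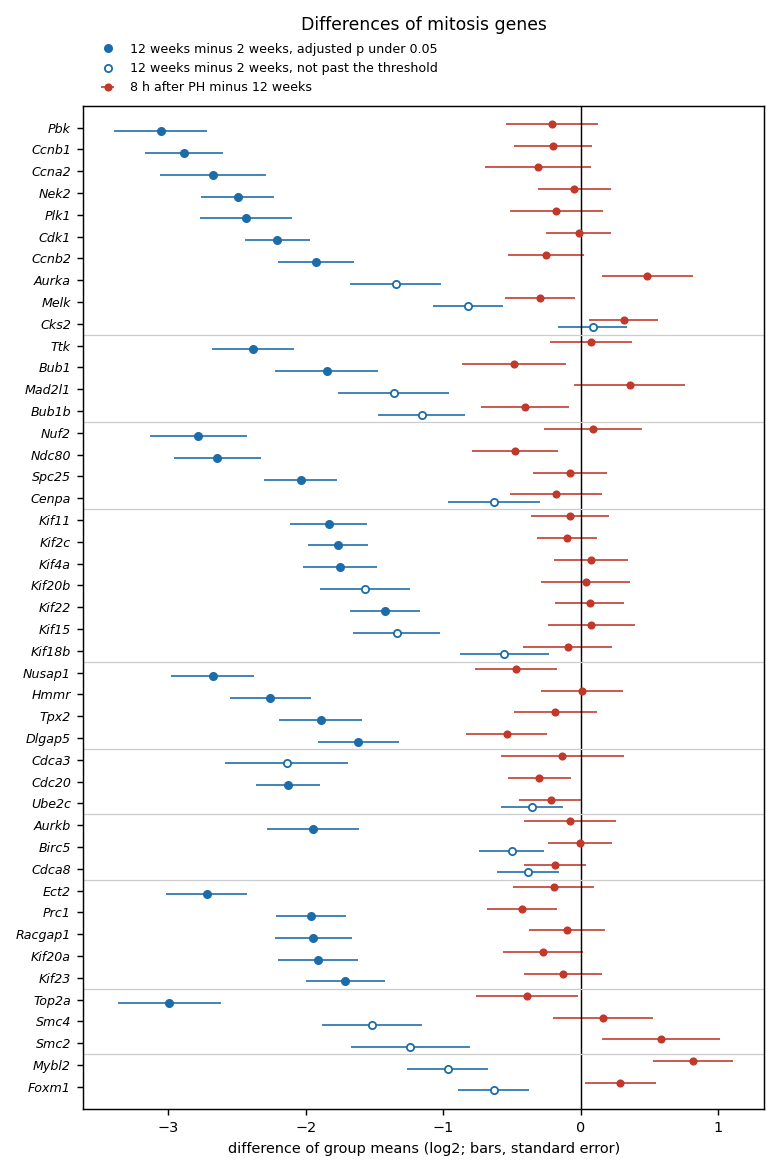
Differences of group means (log2) with their standard errors for the 45 mitosis genes, 8 h after PH minus 12 weeks (red) and 12 weeks minus 2 weeks (blue; filled where the adjusted p was under 0.05), with grey lines between roles. The blue points spread from -3.06 to 0.09, while the red ones lie between -0.54 and 0.82.

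Set against the young livers, the operated ones were low. In PH minus 2 weeks 30 of 45 members were called lower and 0 higher (limma, adjusted p under 0.05), against 1.36% of all genes lower, and the median difference was -2.04. This comparison and that of 12 weeks minus 2 weeks share the 2-week arrays. Ccnb1 differed by -3.09 in PH minus 2 weeks and by -2.89 in 12 weeks minus 2 weeks, and Top2a by -3.38 and -2.99 in the same order. Bub1b had an adjusted p of 0.0498 in the first and 0.148 in the second, and Cdca3 0.0442 and 0.0546. Without the first 2-week array 10 members were called in PH minus 2 weeks, with a median of -1.81, without the first array after PH 10, and without the second array after PH 14. Erythroid markers were lower in the same comparison: 4 of 11 were called, Alas2 (-3.38), Ahsp (-3.11), Slc4a1 (-2.80) and the transferrin receptor Tfrc (-2.47), with a list median of -1.81. Alas2 and Slc4a1 were called without the first 2-week array, with a list median of -1.06, Alas2 alone without the first array after PH, and Alas2 and Tfrc without the second. Other lists were lower in PH minus 2 weeks as well. Called lower were 13 of 33 other mitosis genes, 4 of 25 DNA replication genes and 3 of 11 G1 cyclins and kinases. Their medians were -1.12, -1.08 and -0.93. Of 13 stellate cell and fibroblast markers all were below 0 and 1 was called, with a median of -1.11. Hepatocyte, macrophage and lymphocyte markers had 0 calls, with medians of -0.03, 0.02 and -0.04. The part of any cell type in the differences of the members was not tested.

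In PH minus 4 weeks 42 members were below 0 (50.8% of all genes), with a median of -1.01, and 40 did not overlap (22.5% of all genes). One was called lower, Ccnb1, by -1.92 ± 0.28 (SE; limma adjusted p = 0.0433), against 0.193% of all genes. That call was lost without any one of the arrays after PH, at 2 weeks or at 4 weeks. Ndc80, at -1.92, and Top2a, at -1.90, were as far apart without passing (adjusted p 0.0655 and 0.112). An unadjusted p under 0.05 and a lower level were found for 30 members, against 5.29% of all genes.

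The other parts of the cell cycle were described by lists of genes that are no members. Of 33 other mitosis genes, 12 were called lower at 12 weeks than at 2 weeks, all 33 were below 0 and the median was -1.03. Cdkn3, a phosphatase acting on CDKs, had the largest difference of that list. It measured 4.37 and 4.31 after PH, 8.02 and 6.98 at 2 weeks, 6.41 and 6.80 at 4 weeks, and 4.43 and 4.52 at 12 weeks, a difference of -3.03 ± 0.34 (SE; limma adjusted p = 0.00417). Cdc25b, the phosphatase that activates CDK1, differed by -2.32, Mastl, a kinase that holds back the phosphatase opposing CDK1, by -2.20, and Pttg1, which encodes securin, by -2.04. Cdkn3 alone of the 33 was called without the first 2-week array, with a list median of -0.72. The count was 3 without the first 12-week array, 7 without either array after PH and 8 without the second 2-week array.

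Genes for the core parts of the same machines had no call in this comparison. Of 13 core subunits of the APC/C 0 were called, with a median of -0.34 and the largest difference in Cdc26 (-0.87), and of these 0 had an unadjusted p under 0.05. Of 8 genes of cohesin and condensin II 0 were called, with a median of -0.39, the largest difference in Rad21 (-0.84) and 3 at an unadjusted p under 0.05. Of 11 RB, E2F and DREAM regulators 0 were called, with a median of -0.33 and 2 at an unadjusted p under 0.05, and the largest difference in any comparison was that of Tfdp2 in PH minus 2 weeks (-1.58, limma adjusted p = 0.131). The 3 medians were -0.27, -0.27 and -0.22 without the first 2-week array. Over all genes 11.1% had an unadjusted p under 0.05 in 12 weeks minus 2 weeks, in either direction. Whether these lists differ from the members was not tested.

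Some genes of earlier phases of the cycle were also lower at 12 weeks than at 2 weeks. Of 11 G1 cyclins and kinases 4 were called lower, the cyclins Ccnd1 (-2.19), Ccne1 (-1.92) and Ccne2 (-1.67) and the phosphatase Cdc25a (-1.49), with a list median of -1.17. The count was 0 of 11 without the first 2-week array, with a median of -1.21, and without the first 12-week array the median was -0.76. Ccne1 and Cdc25a were also called at 4 weeks against 2 weeks, by -1.69 and -1.42 (limma adjusted p = 0.0393 and 0.0451), and both calls were lost without any one of the arrays after PH, at 2 weeks or at 4 weeks. The difference between their age steps was not called (limma adjusted p = 0.984 and 0.949), and 0 of the 11 G1 genes were. At an unadjusted p under 0.05, 5 of the 11 were above 0 and 1 below, against 3.64% of all genes in either direction. The list median of this difference was 1.275. Whether the G1 genes differ from the mitosis genes was not tested. Ccne1 measured 6.23 and 5.75 after PH, 7.59 and 7.16 at 2 weeks, 5.66 and 5.70 at 4 weeks, and 5.33 and 5.58 at 12 weeks. Its arrays at 4 weeks lay near those at 12 weeks. Of 25 DNA replication genes 4 were called lower at 12 weeks, Rrm2, Mcm10, Uhrf1 and Mcm6, with a median of -0.95 and 25 of 25 below 0. There were 0 calls without the first 2-week array, with a median of -0.56, without the first 12-week array 0 were called, and without any one array after PH or at 4 weeks 2 were. Of 11 CDK inhibitors and p53 targets 0 were called in that comparison, with a median of -0.57 and 2 at an unadjusted p under 0.05, and Cdkn1c, which encodes the inhibitor p57, was called lower in PH minus 2 weeks (-1.15, limma adjusted p = 0.0466), a call lost without any one of the arrays after PH, at 2 weeks or at 4 weeks. The list median in 12 weeks minus 2 weeks was -0.85 without the first 2-week array. The share of all genes with an unadjusted p under 0.05 in 12 weeks minus 2 weeks was 11.1%.

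After PH, 0 genes of these 7 cell cycle lists were called against 12 weeks in limma. At an unadjusted p under 0.05 there were 0 other mitosis genes, 0 DNA replication genes, 1 of the 11 G1 genes and 1 of the 11 RB, E2F and DREAM regulators, with 0 in the other 3 lists. Over all genes the share was 6.01% in either direction. The G1 phosphatase Cdc25a was the gene of its list with the largest difference, 0.58 ± 0.22 (SE; limma adjusted p = 0.747), with 7.36 and 7.27 after PH against 6.54 and 6.93 at 12 weeks. The largest difference over the 7 lists was 1.05, in 1 of the 11 CDK inhibitors and p53 targets, and its unadjusted p in limma was not under 0.05.

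**Figure D5:**
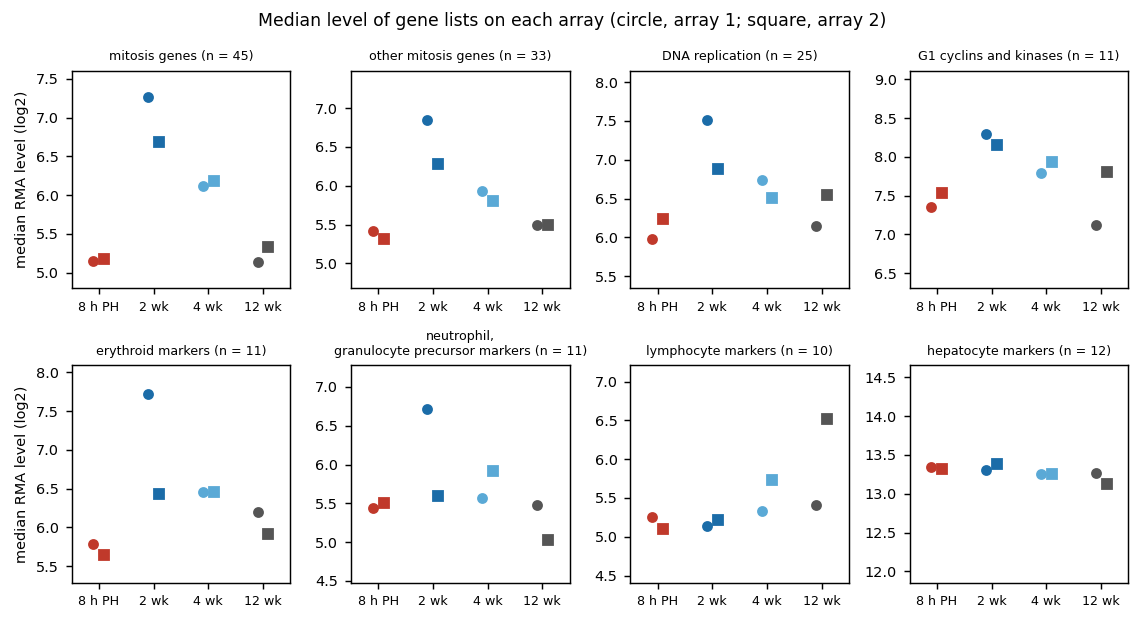
Median log2 RMA level of 8 gene lists on each array (circle for array 1, square for array 2) for 8 h after PH and 2, 4 and 12 weeks of age; each panel has its own range of the same length. The mitosis genes and the other mitosis genes step down over the ages, the erythroid and neutrophil precursor medians stand out on the first 2-week array, and the hepatocyte median stays between 13.1 and 13.4.

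Markers of other cell types moved with age beside the mitosis genes. Of 11 erythroid markers 3 were called lower at 12 weeks than at 2 weeks, Ahsp (-3.14), Alas2 (-2.74) and Slc4a1 (-2.01), all genes of red cell precursors, with a list median of -1.19. Alas2, the first enzyme of haem synthesis in red cell precursors, measured 6.79 and 6.27 after PH, 10.13 and 9.70 at 2 weeks, 8.81 and 9.13 at 4 weeks, and 6.72 and 7.64 at 12 weeks, and was also called lower in PH minus 4 weeks (-2.43, limma adjusted p = 0.0394). At 12 weeks against 2 weeks 0 erythroid markers were called without the first 2-week array, with a median of -0.74. The count was 6 without the second 2-week array, 2 without either 4-week array and 1 without any one array after PH or at 12 weeks. Of 11 neutrophil and granulocyte precursor markers 0 were called, with a median of -0.83 and -4.33 ± 1.18 (SE) in Ngp. At an unadjusted p under 0.05, 7 of them were lower, against 6.44% of all genes. The Ngp difference was -1.97 without the first 2-week array and was called there (limma adjusted p = 0.0325), with a list median of -0.41. Of 13 stellate cell and fibroblast markers 3 were called lower, Reln (-1.56), Des (-1.46) and Hgf (-1.30), with a median of -1.30. Of these 0 were called without the first 2-week array, with a median of -1.30 as well, and 1 was without any one of the second 2-week array, the arrays after PH or the 12-week arrays. The part of these cells in the differences of the mitosis genes was not tested.

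Hepatocyte, macrophage, endothelial and bile duct markers had 0 calls between 12 and 2 weeks, with medians of -0.08 over 12 genes, 0.0030 over 11, -0.35 over 7 and -0.02 over 6. Unadjusted p-values under 0.05 were found for 2, 1, 1 and 0 of them in the same order, against 11.1% of all genes. All 10 lymphocyte markers were above 0 (51.6% of all genes), with a median of 0.75, but 0 were called. At an unadjusted p under 0.05, 5 of the 10 were higher, against 4.7% of all genes. The median of the lymphocyte markers on the 12-week arrays was 5.41 and 6.52. In PH minus 12 weeks the 10 lymphocyte markers were below 0, with a median of -0.60 and the largest difference in Cd3d (-1.15, limma adjusted p = 0.165). The largest differences of the other marker lists in any comparison were 0.81 in PH minus 12 weeks for Fga (hepatocytes), -2.36 and -2.98 in 12 weeks minus 4 weeks for Marco (macrophages) and Spp1 (bile ducts), and -0.90 in PH minus 2 weeks for Emcn (endothelium), with 0 of them called. The difference of Spp1 rested on 1 array at 4 weeks, and the second 12-week array was the lowest for Marco.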

How the data were processed

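The 8 arrays hold whole-liver RNA. Per the submitters' processing notes, the authors used Affymetrix Expression Console and RMA, which corrects background, equalises arrays and summarises probes, and deposited log2 levels. Its version and any filter are not given here. Of 29214 probe sets, 15316 named 1 gene, 317 several and 13581 none in the platform annotation, and the probe set with the highest mean over the arrays was kept for each of 14511 genes.

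Groups were compared as contrasts in 1 model of the 4 groups with lmFit and eBayes (limma 3.58.1, R 4.3.3), with 4 residual and 4.27 prior degrees of freedom and two-sided p-values adjusted by Benjamini-Hochberg over all genes. A gene was called at an adjusted p under 0.05. Tested on 10 simulations with 200 changed genes, 5.63% of the calls for 12 weeks minus 2 weeks were unchanged genes. That rate is over all 14511 genes and was not worked out for the members. The members and all gene lists were chosen with earlier results of these data known, and lists were described by counts and medians without a test. Array values are given for the members with the largest and the smallest difference of each role, for 7 set genes and for members called in a contrast other than 12 weeks minus 2 weeks. From the other lists the genes named are those called in any contrast (up to 4), or else the one with the largest difference, and the 6 printed promoters were picked after the values were seen. Alternatives changed the scaling, the probe set, a filter on low levels, the spread estimate, the arrays in the fit, a replicate block, the threshold and a receptor-gene covariate. Leaving out arrays for the roles, the other lists and the share covered by 4 weeks was added after the data were seen. Promoters are RefSeq windows on GRCr8, matched by gene ID or symbol.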

Additional observations from a re-analysis of the deposited data

How the results depend on the processing

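The median member differences kept their sign under all alternatives run. With only genes at or above the median level, which leaves 5 members, the medians were -1.52 for 12 weeks minus 2 weeks, -1.36 for PH minus 2 weeks and -0.71 for PH minus 4 weeks, and 2, 2 and 0 members were called. With 1 array left out at a time, medians ran from -2.14 to -1.57 for 12 weeks minus 2 weeks, from -2.32 to -1.81 for PH minus 2 weeks, from -0.18 to -0.06 for PH minus 12 weeks and from -1.27 to -0.62 for 4 weeks minus 2 weeks. In the same fits 8 to 29 members were called in 12 weeks minus 2 weeks, 10 to 30 in PH minus 2 weeks and 0 to 6 in PH minus 4 weeks, where the 6 came without either 12-week array. For 12 weeks minus 2 weeks, 18 members were called with only the groups compared in the fit and 15 at an adjusted p under 0.01, and without the first 12-week array 19. For PH minus 4 weeks, with 1 member called, the count was 3 with arrays centred on their median, 5 with a common 75th percentile, 2 with a trended and robust spread, 9 with array weights, 6 with only the groups compared, 3 with the receptor-gene covariate and 0 at an adjusted p under 0.01. For 4 weeks minus 2 weeks, with 0 called, it was 1 with array weights and 3 with the receptor-gene covariate. The causes were not tested. Centring the arrays moved the median of all genes by -0.15 in PH minus 2 weeks and by -0.11 in 12 weeks minus 2 weeks and PH minus 4 weeks.

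The replicate numbers recur in every group. Over genes, the differences between replicates 1 and 2 of the groups correlated with r from 0.023 to 0.568, and over 0.1 in 5 of the 6 pairs of groups, highest between PH and 12 weeks. The labels name no shared animal, day or batch, and with 2 pairs per comparison the values do not settle whether the numbers mark a shared factor, so the fit without a block was kept. With a replicate block 31 members were called in 12 weeks minus 2 weeks, 33 in PH minus 2 weeks, 4 in PH minus 4 weeks and 0 in the other comparisons. The low levels of most members and the 2 arrays per group limit the precision.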

Other observations

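Genes outside the list were ranked by how closely their 8 array values, minus their mean, followed the median of the mitosis genes. The closest was Cdca7, a gene of chromatin remodelling at repeats, with a root mean square distance of 0.14 log2 units, against a median of 0.34 over the members themselves and 0.81 over all genes. Cdca7 measured 6.17 and 6.02 after PH, 8.00 and 7.65 at 2 weeks, 7.21 and 6.99 at 4 weeks, and 6.15 and 6.03 at 12 weeks. The next 9 were Fxyd6, Hist1h2an, H2ac4, Hist1h2ail1, Cdca2, Idh2, Nt5dc2, Tcf19 and Dsn1, at distances up to 0.18. They hold 3 histone H2A genes, which can share signal with near-identical copies and are uncertain, the kinetochore gene Dsn1 and Idh2, the mitochondrial isocitrate dehydrogenase, which measured 8.31 and 8.34 after PH, 10.55 and 9.97 at 2 weeks, 9.46 and 9.66 at 4 weeks, and 8.79 and 8.38 at 12 weeks. Of the 50 genes nearest to the profile, 18 were members. The profile came from the members, so these distances are a description over 8 arrays.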
